A study of Arabidopsis thaliana with 90 samples.

Results

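A set of 10 genes of DNA replication and the cell division cycle was followed through a red light and temperature experiment on Arabidopsis thaliana seedlings. They were taken by gene identifier, with earlier results of these data known, and are 10 of the 28775 genes in the count table. The set holds the 5 minichromosome maintenance genes MCM2 (AT1G44900), MCM3 (AT5G46280), MCM5 (AT2G07690), MCM6 (AT5G44635) and MCM7 (AT4G02060), the sliding clamp gene PCNA1 (AT1G07370), the D-type cyclin CYCD3;1 (AT4G34160), the B-type cyclin-dependent kinases CDKB1;1 (AT3G54180) and CDKB2;1 (AT1G76540), and the mitotic cyclin CYCB1;1 (AT4G37490). All 10 had enough reads to be tested.

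The MCM proteins form the ring-shaped helicase that is loaded on DNA before S phase and unwinds it at replication forks, and PCNA holds the DNA polymerases on their template. D-type cyclins act with cyclin-dependent kinases at the entry into S phase, where the retinoblastoma-related protein is phosphorylated and E2F factors are released, while the plant-specific B-type kinases and the B-type cyclins act around the passage through G2 into mitosis. In etiolated seedlings the meristem of the shoot apex divides little until light arrives, and red light is read by the phytochromes, of which Arabidopsis has phyA to phyE.

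Polyadenylated RNA was sequenced from seedling material of 5 lines in the Landsberg erecta (Ler) accession, all of them lacking most of their own phytochromes. PHYD-YFP/abCde carried phyD-YFP under the strong 35S promoter in a quadruple mutant with phyC intact, aBcde kept native phyB alone, PHYB-CFP/abcde carried phyB-CFP under the PHYB promoter in the quintuple mutant phyA-201 phyB-1 phyC-1 phyD-1 phyE-1, PHYB-CFP, PHYD-YFP/abcde carried both transgenes in it (called the two-transgene line here), and PHYD-YFP/abcde carried phyD-YFP in it, as a line that had been selected for its high expression. Seedlings were grown for 4 days in darkness at 27 °C or at 17 °C, and were then harvested, or first exposed to red light (R) of 50 µmol m−2 s−1 for 1 h or 24 h. Each of the 30 groups had 3 libraries. Seedlings at both temperatures had the same age in days, so temperature and the stage of development reached at that age cannot be told apart. As described, the 24 h of R followed the 4 days in darkness, and no group was a dark control of that later age. Differences after 24 h R therefore cannot be divided between the light and the added time. In such bulk samples, fewer dividing cells and less RNA per cell cannot be told apart either.

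The 90 libraries held 15010386 to 41124234 counts, and 20695 genes were tested. Levels are given in CPM (read counts scaled to a common library size). PHYD stood at 9564 to 37492.5 CPM in PHYD-YFP/abCde, 3852 to 12572 CPM in PHYD-YFP/abcde and 4492 to 12707.5 CPM in the two-transgene line. In the other 2 lines it stood at 11.8 to 588 CPM, where the highest value belonged to replicate 1 of aBcde after 24 h R at 27 °C. PHYB stood at 195 to 1637 CPM in the 2 lines with PHYB-CFP and at 47.8 to 179 CPM in the rest. Replicate 3 of PHYD-YFP/abCde after 1 h R at 17 °C differed from its other replicates by a root mean square of 1.00 to 1.01 on the log2 scale, against 0.457 to 0.855 in the 88 other pairs of replicates. The labels number the replicates without saying whether they were separate sowings, so p-values measure the spread between these samples, which may be technical.

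Of the 5 MCM genes, 4 held a sequence of the kind that E2F factors bind in the 300 bases from 250 before to 50 after their annotated start, and they are shown because all 5 MCM genes were called lower at 27 °C in each line and light condition below. The searched letters were TTTCCCGC, TTTGGCGC, TTTCGCGC and TTTGCCGC on both strands, and 1.76% of the 26709 promoters of protein-coding genes held 1 of them. The 250 bases before the start are printed 5′ to 3′ on the strand of the gene from the RefSeq TAIR10.1 assembly, which is of the Col-0 accession and not of Ler, with the match in capitals (read on the other strand in MCM3 and MCM6).
MCM2 (chr1:16969964-16970213, plus strand): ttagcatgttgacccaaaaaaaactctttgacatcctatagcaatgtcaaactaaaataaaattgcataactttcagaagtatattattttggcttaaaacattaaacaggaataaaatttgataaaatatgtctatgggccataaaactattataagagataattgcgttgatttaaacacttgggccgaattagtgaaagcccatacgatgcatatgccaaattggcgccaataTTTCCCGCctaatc
MCM3 (chr5:18773707-18773956, minus strand): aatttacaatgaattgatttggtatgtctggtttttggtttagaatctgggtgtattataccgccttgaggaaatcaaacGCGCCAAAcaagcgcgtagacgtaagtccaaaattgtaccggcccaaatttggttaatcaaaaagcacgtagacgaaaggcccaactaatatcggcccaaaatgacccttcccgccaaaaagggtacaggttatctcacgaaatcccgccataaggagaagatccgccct
MCM5 (chr2:3527501-3527750, minus strand): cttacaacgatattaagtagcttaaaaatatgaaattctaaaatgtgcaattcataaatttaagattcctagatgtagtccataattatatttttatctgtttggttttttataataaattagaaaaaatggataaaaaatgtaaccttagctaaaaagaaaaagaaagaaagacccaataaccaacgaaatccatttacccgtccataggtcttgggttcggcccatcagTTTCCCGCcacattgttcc
MCM6 (chr5:18010668-18010917, minus strand): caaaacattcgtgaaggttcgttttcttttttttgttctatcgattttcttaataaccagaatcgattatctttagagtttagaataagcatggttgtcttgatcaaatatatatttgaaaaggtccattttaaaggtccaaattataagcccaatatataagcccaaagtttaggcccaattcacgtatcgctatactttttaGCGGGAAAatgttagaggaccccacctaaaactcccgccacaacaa
MCM7, PCNA1 and the cyclin and kinase genes had no match to these letters. The core AACGG of the mitosis-specific activator element, found in genes that are read around mitosis, was held by 24.7% of all promoters and by 4 of the 10. These were MCM6, MCM7, CYCD3;1 and CYCB1;1, and neither kinase gene held it. It was present 3 times in the mitotic cyclin gene, whose matches are in capitals below.
CYCB1;1 (chr4:17624309-17624558, minus strand): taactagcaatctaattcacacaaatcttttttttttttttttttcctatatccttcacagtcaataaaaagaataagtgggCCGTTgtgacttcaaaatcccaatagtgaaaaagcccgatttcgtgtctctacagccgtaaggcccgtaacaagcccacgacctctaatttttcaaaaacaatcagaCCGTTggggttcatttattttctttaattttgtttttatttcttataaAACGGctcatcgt
The site II elements TGGGCC and TGGGCT, which are common in genes of growing tissue, were in 22.0% of all promoters and in 6 of the 10. A match is a description of these letters and not evidence of binding.

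Per kilobase of exon, CDKB2;1 had the highest level in dark-grown seedlings at both temperatures. The median of the 5 line means was 11.1 CPM per kilobase of exon (RPKM) at 27 °C and 18.6 at 17 °C. The D-type cyclin followed with 7.24 RPKM at 27 °C and 10.6 at 17 °C. The MCM genes stood between 0.575 and 2.00 RPKM at 27 °C and between 3.69 and 7.77 RPKM at 17 °C. MCM2 and MCM3 (4.77 and 4.74 RPKM at 17 °C) had overlapping line means there and cannot be ordered. The mitotic cyclin was the lowest at 17 °C with 1.76 RPKM. Its coding sequence is 66.6% identical to that of CYCB1;2, whereas PCNA1 is 85.6% identical to PCNA2, and the B1-type (CDKB1;1) and B2-type (CDKB2;1) kinase genes are 85.9% and 86.6% identical to their closest copies. How reads that match both copies of a pair were counted is not given in the sources used here.

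**Figure D1:**
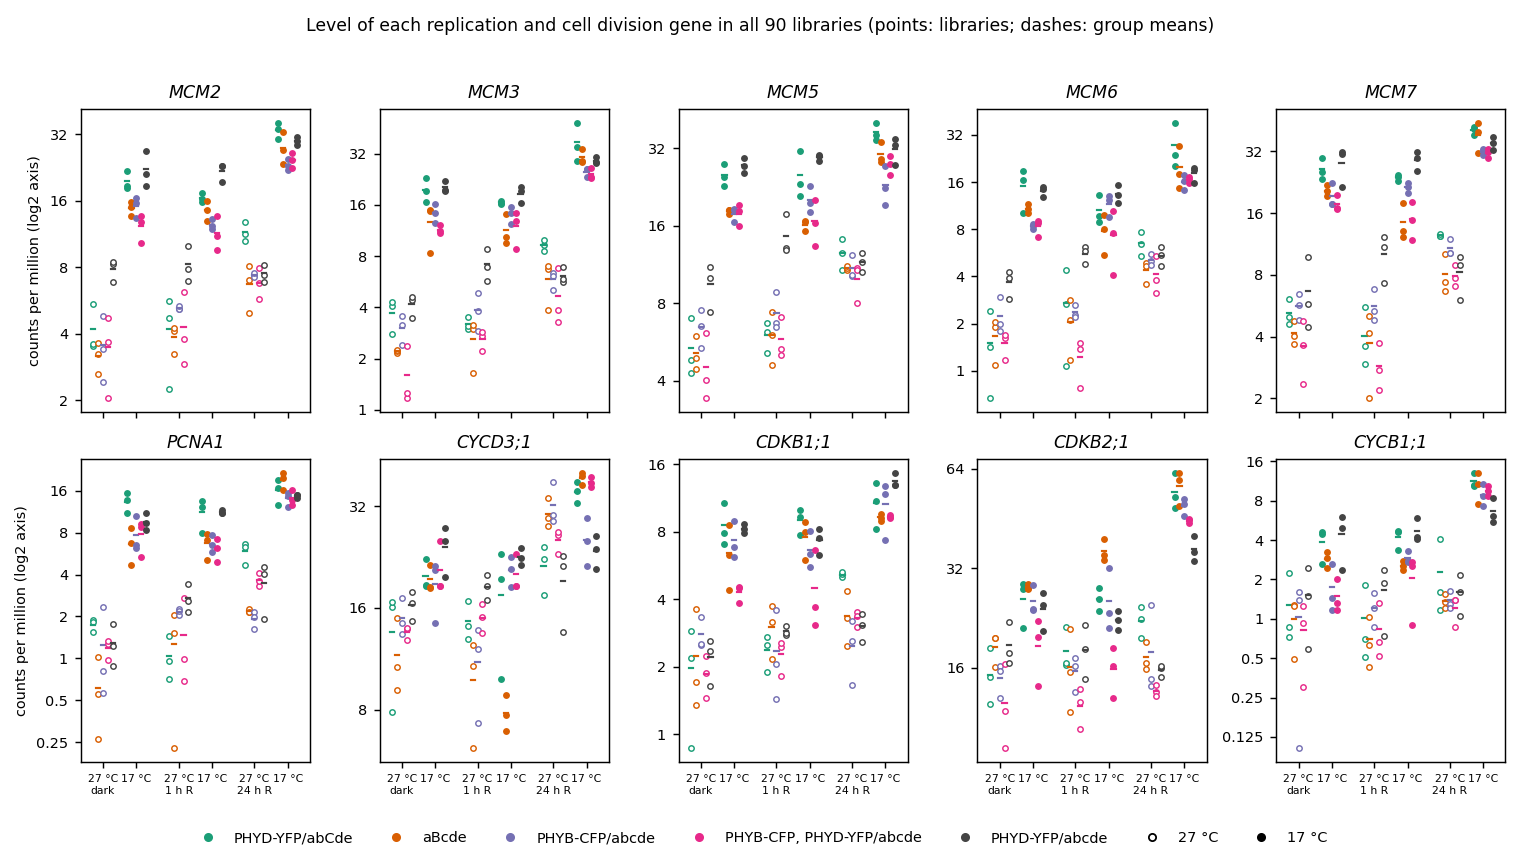
CPM (log2 axis) of each of the 10 genes in every library, at 27 °C (open) and 17 °C (filled) in darkness, after 1 h R and after 24 h R, with a dash at each group mean (n = 3). In darkness and after 24 h R, no library at 27 °C reached the lowest library at 17 °C for the 5 MCM genes, PCNA1 and CDKB1;1, while the 2 temperatures overlapped in CYCD3;1. How often this holds among all genes was not counted.

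The first comparison asked how the warmer growth temperature changed these genes in the same line and light condition. In darkness, the MCM genes and PCNA1 were 2.76 to 10.7 times lower at 27 °C in every line, whichever phytochrome it carried. All 5 MCM genes, PCNA1 and the B1-type kinase were called lower at 27 °C in all 5 lines, where a call stands for an adjusted p below 0.05 together with a 2-fold or greater difference (edgeR quasi-likelihood test, Benjamini-Hochberg adjustment). The mitotic cyclin was called in 3 of the 5 lines, and the B2-type kinase and the D-type cyclin in none. In all, 38 of 50 tests in darkness were called, and none of the 10 genes was called higher. DESeq2 and limma called 38 as well.

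The share of the 20695 genes called lower at 27 °C in darkness was 16.6% in PHYD-YFP/abCde, 15.5% in aBcde, 14.1% in PHYB-CFP/abcde, 13.3% in the two-transgene line and 14.3% in PHYD-YFP/abcde, against 7 or 8 of the 10 genes in each line. The median log2 fold change over the 10 genes lay between −2.23 and −1.62, where the median over all genes lay between −0.00 and 0.03.

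MCM2, a helicase subunit, had 2.05 to 8.46 CPM (median 3.61) in the 15 dark libraries at 27 °C, against 10.3 to 26.9 CPM (median 15.9) in the 15 at 17 °C. Its dark levels did not overlap between the temperatures, and its log2 fold change ran from −2.23 in aBcde and PHYD-YFP/abCde to −1.50 in PHYD-YFP/abcde (adjusted p at most 7.26e-09).

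MCM3 had 1.17 to 4.61 CPM (median 2.79) at 27 °C, against 8.34 to 22.9 CPM (median 14.96) at 17 °C. It was 4.72 to 7.04 times lower at 27 °C (log2 fold change −2.82 to −2.24). MCM5 had 3.43 to 11.0 CPM (median 5.94) at 27 °C, against 16.0 to 29.4 CPM (median 18.6) at 17 °C, with log2 fold changes of −2.22 to −1.47.

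MCM6 had the lowest median level of the 5 in darkness at 27 °C. In PHYD-YFP/abCde it had 0.670, 1.41 and 2.42 CPM at 27 °C (11, 21 and 39 counts), against 10.1, 16.5 and 18.8 CPM at 17 °C (log2 fold change −3.33 with an SE of 0.33, adjusted p = 1.87e-13, and standard errors follow the ± sign from here on). The smallest change of MCM6 was −1.89 in PHYB-CFP/abcde, where it had 1.80, 1.97 and 2.97 CPM at 27 °C against 8.64, 8.04 and 8.38 CPM at 17 °C. The dark libraries of the 2 temperatures did not overlap in any line.

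MCM7 had 2.35 to 9.78 CPM (median 4.78) at 27 °C, against 16.8 to 31.7 CPM (median 21.5) at 17 °C, and log2 fold changes of −2.31 to −1.77. Its annotated span overlaps AT4G02050 and AT4G02055, and the strand setting of the counting is not given in the sources used here, so reads in the shared stretch cannot be assigned. The D-type cyclin and both kinase genes overlap 1 neighbour each.

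PCNA1, the clamp subunit, showed the greatest drop of the 10 genes in darkness in 3 of the 5 lines, the exceptions being PHYD-YFP/abCde, where MCM6 dropped further, and the two-transgene line, where MCM3 did. In aBcde it had 0.551, 1.02 and 0.264 CPM at 27 °C (9, 17 and 4 counts), against 8.58, 4.66 and 6.77 CPM at 17 °C (164, 76 and 135 counts) (log2 fold change −3.42 ± 0.41, adjusted p = 1.42e-10). Over the lines it was 6.24 to 10.7 times lower at 27 °C. All 15 dark libraries at 27 °C lay at or below 2.35 CPM, and all 15 at 17 °C at or above 4.66 CPM.

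The D-type cyclin CYCD3;1 was called lower at 27 °C in no line or light condition. It had 7.85 to 17.8 CPM (median 14.4) in darkness at 27 °C, against 14.5 to 27.6 CPM (median 19.8) at 17 °C, and the 2 sets overlapped. Its log2 fold changes of −0.75 to −0.33 passed an adjusted p of 0.05 in 4 lines without reaching 2-fold.

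The B1-type kinase CDKB1;1 had 0.869 to 3.61 CPM (median 2.23) at 27 °C, against 3.85 to 10.7 CPM (median 7.05) at 17 °C, and was 2.32 to 4.32 times lower. The B2-type kinase CDKB2;1 had 9.14 to 22.0 CPM (median 16.2) at 27 °C, against 14.1 to 28.7 CPM (median 24.7) at 17 °C, again with overlap. Its log2 fold changes in darkness were −0.77 to −0.36, which passed an adjusted p of 0.05 in 4 lines without reaching 2-fold.

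The mitotic cyclin CYCB1;1 was scarce in darkness, with 0.103 to 2.46 CPM (median 1.24) at 27 °C against 1.17 to 6.004 CPM (median 2.60) at 17 °C, and the 2 sets overlapped. It was called lower in PHYD-YFP/abCde (log2 fold change −1.59 ± 0.48, adjusted p = 0.00375), in aBcde (−1.51) and in PHYD-YFP/abcde (−1.53). In PHYB-CFP/abcde it had 0.103, 1.39 and 1.61 CPM at 27 °C, the first of them from 2 counts, against 1.18, 2.60 and 1.43 CPM at 17 °C, and the log2 fold change of −0.74 was not called (adjusted p = 0.214).

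**Figure D2:**
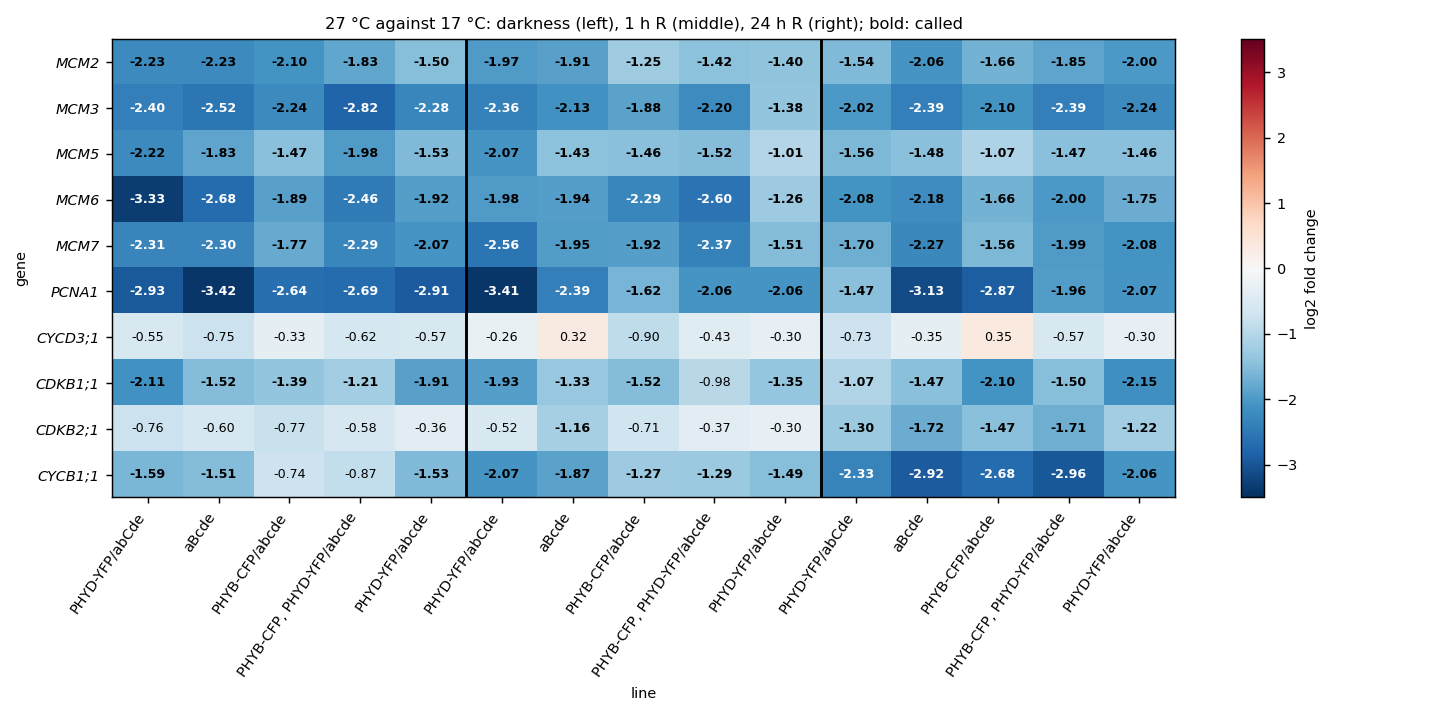
Log2 fold change at 27 °C over 17 °C of the 10 genes (rows) in the 5 lines (columns), in darkness, after 1 h R and after 24 h R, with called values in bold. The MCM genes and PCNA1 are called lower in all 15 columns, CYCD3;1 in none, and CDKB2;1 in all 5 lines only after 24 h R.

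After 1 h R, 40 of 50 tests were called lower at 27 °C, against a background of 15.2% of all genes in PHYD-YFP/abCde, 14.1% in aBcde, 13.5% in PHYB-CFP/abcde, 11.9% in the two-transgene line and 11.6% in PHYD-YFP/abcde. The mitotic cyclin was then called in all 5 lines, the B1-type kinase in 4 and the B2-type kinase in aBcde alone (log2 fold change −1.16). After 24 h R, 45 of 50 were called, which was all of the 10 genes but the D-type cyclin in each line. The background was 12.5% in PHYD-YFP/abCde, 13.0% in aBcde, 11.0% in PHYB-CFP/abcde, 12.3% in the two-transgene line and 13.0% in PHYD-YFP/abcde.

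The mitotic cyclin had the greatest drop of these after 24 h R in 2 of the lines. In the two-transgene line it had 0.864, 1.39 and 1.40 CPM at 27 °C, against 8.67, 10.4 and 9.45 CPM at 17 °C (log2 fold change −2.96 ± 0.49, adjusted p = 7.99e-07). Over the lines it was 4.18 to 7.77 times lower at 27 °C, and no library at 27 °C reached the lowest at 17 °C.

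The B2-type kinase was 2.32 to 3.30 times lower at 27 °C after 24 h R. In aBcde it had 16.6, 15.9 and 19.1 CPM at 27 °C, against 49.2, 59.0 and 61.9 CPM at 17 °C (log2 fold change −1.72 ± 0.18, adjusted p = 1.48e-12). In darkness the same line had 19.7, 16.1 and 19.6 CPM at 27 °C against 27.7, 27.9 and 28.7 CPM at 17 °C. The 3 libraries at 27 °C were thus at a like level in both light conditions, while those at 17 °C were higher after 24 h R.

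Other genes of the same processes were described from lists of known members. In darkness, 16 to 22 of 37 further replication genes were called lower at 27 °C over the 5 lines and at most 1 was called higher. They included CDT1A, which loads the MCM ring (log2 fold change −3.54 to −2.52), MCM4, the subunit of the ring outside the set (−1.83 to −1.41), ETG1, a replisome factor (−2.10 to −1.18), and ICU2, the catalytic subunit of DNA polymerase alpha (−2.07 to −1.30). The genes of histone H3.1, which is laid down behind replication forks, were called lower in 4 or 5 of 5 cases with list medians of −2.37 to −2.03, although these near-identical copies may share reads.

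Of 9 genes of the E2F and retinoblastoma-related group, 3 to 5 were called lower, led by the activator E2FA (−2.55 to −1.80) and by the repressor DEL1 (−2.60 to −1.43). Of 9 other D-type cyclins, 5 to 7 were called lower, so the small change of AT4G34160 was not shared by most of its family. CYCD4;1 changed by −4.16 to −2.27. Of 21 A- and B-type cyclins and kinases, 9 to 16 were called lower, and of 19 genes of mitosis and cytokinesis 8 to 12 were. Among these were TPX2, a spindle assembly factor (−2.46 to −1.13), HINKEL, a kinesin of the cell plate (−3.79 to −1.64), and MAD2, a spindle checkpoint protein (−2.26 to −1.34).

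The 14 inhibitors of cyclin-dependent kinases had medians of −0.06 to 0.24 in the same comparison, with 2 or 3 called lower and up to 2 higher. SMR5, an inhibitor known from stress responses, was called higher at 27 °C in 2 of 5 lines (log2 fold change 0.75 to 4.65). WEE1, a kinase that restrains cyclin-dependent kinases, was called lower in all 5 lines (−3.80 to −1.68).

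Markers of dividing tissues did not all move with these genes. The 6 shoot apex markers summed to 81.8 to 127 CPM in darkness at 27 °C and to 98.0 to 135 CPM at 17 °C, and 4 of them had enough reads to be tested. STM, a meristem identity gene, was higher at 27 °C in all 5 lines and called in 2 (log2 fold change 0.68 to 1.35), while ANT, a gene of organ growth, was called lower in 2 (−1.12 to −0.82). The 6 root tip markers summed to 81.2 to 111 CPM at 27 °C and to 91.4 to 128 CPM at 17 °C, with BBM called lower in all 5 lines and PLT1 higher in 3. The 6 stomatal lineage markers summed to 30.7 to 65.6 CPM at 27 °C, below the 70.7 to 99.0 CPM at 17 °C, and SPCH, which starts that lineage, was called lower in all 5 lines (−2.77 to −1.16). No marker of these lists was at 0 in all libraries of a condition. The part of these tissues in the result was not tested.

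**Figure D3:**
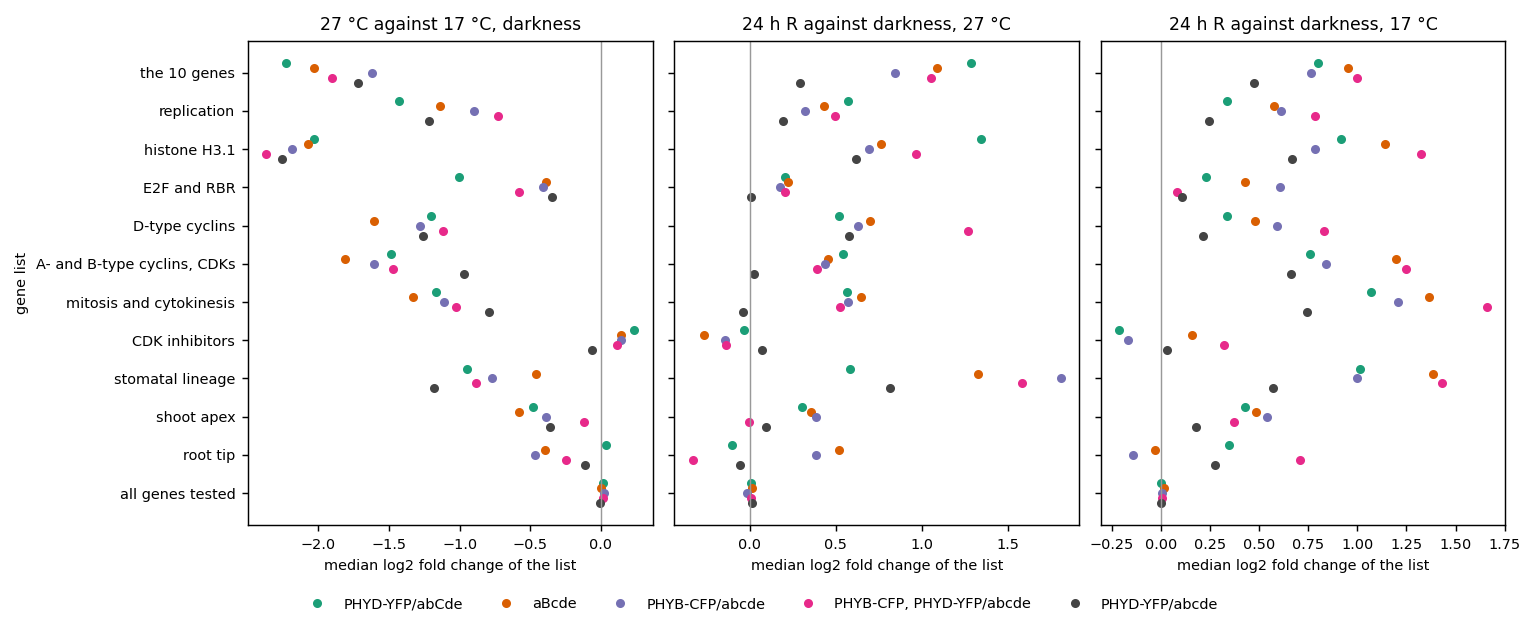
Median log2 fold change of each gene list in the 5 lines (points) for 27 °C against 17 °C in darkness, and for 24 h R against darkness at 27 °C and at 17 °C, with all tested genes at the bottom. For temperature, the lists of replication, histone H3.1, E2F and RBR, cyclins and mitosis lie below 0, as do those of the stomatal lineage and shoot apex. The mitosis list lies further above 0 after R at 17 °C than at 27 °C.

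The second comparison set 24 h R against darkness within a line and temperature, where the lit seedlings were also older, as given above. At 17 °C, the change was positive in 49 of 50 tests and was called in 12. Calls numbered 2 of the 10 genes in PHYD-YFP/abCde, 4 in aBcde, 1 in PHYB-CFP/abcde, 5 in the two-transgene line and 0 in PHYD-YFP/abcde. In the two-transgene line DESeq2 called 6 and limma 2. Of all genes, 8.18% were called higher in PHYD-YFP/abCde, 12.0% in aBcde, 5.60% in PHYB-CFP/abcde, 10.4% in the two-transgene line and 2.91% in PHYD-YFP/abcde. In this last line 4 of the 10 genes had an unadjusted p under 0.05, and DESeq2 and limma called none.

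The mitotic cyclin CYCB1;1 rose most at 17 °C. It was called in 4 lines, with log2 fold changes of 2.66 ± 0.48 in the two-transgene line, 2.36 ± 0.47 in PHYB-CFP/abcde, 1.86 ± 0.45 in aBcde and 1.54 ± 0.44 in PHYD-YFP/abCde (adjusted p = 6.20e-06, 7.46e-05, 0.00052 and 0.00433). In the two-transgene line it had 8.67, 10.4 and 9.45 CPM after 24 h R, against 1.32, 2.00 and 1.17 CPM in darkness. In PHYD-YFP/abcde it had 8.45, 5.53 and 6.16 CPM after 24 h R, against 4.97, 6.004 and 2.34 CPM in darkness, values that overlapped (log2 fold change 0.60, adjusted p = 0.451).

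The B2-type kinase was called in 3 lines at 17 °C (1.26 ± 0.18 in the two-transgene line, 1.08 ± 0.18 in PHYD-YFP/abCde and 1.01 ± 0.18 in aBcde). The level in PHYD-YFP/abCde was 62.3, 48.6 and 52.5 CPM after 24 h R, against 28.6, 27.6 and 21.1 CPM in darkness. All R libraries of each line lay above all of its dark ones in the 5 lines. The B1-type kinase was called in the two-transgene line alone (1.12 ± 0.29).

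Among the replication genes at 17 °C, MCM3 was called in aBcde (1.27 ± 0.21) and the two-transgene line (1.08 ± 0.21), MCM2 in the two-transgene line (1.00 ± 0.20) and PCNA1 in aBcde (1.52 ± 0.32). In aBcde, PCNA1 had 16.2, 19.9 and 21.7 CPM after 24 h R, against 8.58, 4.66 and 6.77 CPM in darkness. MCM5, MCM6 and MCM7 were called in no line, with log2 fold changes of 0.21 to 0.99, of which 11 of 15 passed an adjusted p of 0.05 without reaching 2-fold. For MCM2, MCM3, MCM6 and MCM7, all R libraries at 17 °C lay above all dark ones in each of the 5 lines. The share of all genes that separated in this way was not counted, so this is a description only.

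At 27 °C, 22 of 50 tests were called higher after 24 h R and 0 lower. In all, 46 of 50 changes were positive. Calls numbered 7 of the 10 genes in PHYD-YFP/abCde, 6 in aBcde, 3 in PHYB-CFP/abcde, 5 in the two-transgene line and 1 in PHYD-YFP/abcde. DESeq2 gave the same numbers, while limma called 7, 2, 1, 3 and 0 in the same order of lines. The share of all genes called higher was 7.56%, 11.0%, 9.48%, 9.23% and 3.02% in the same lines.

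Here the replication genes of the set carried most of the calls. MCM6 was called in 4 lines and rose most in PHYD-YFP/abCde, where it had 5.40, 6.41 and 7.73 CPM after 24 h R, against 0.670, 1.41 and 2.42 CPM in darkness (log2 fold change 2.11 ± 0.33, adjusted p = 9.02e-07). PCNA1 was also called in 4 lines. In PHYD-YFP/abCde it had 4.71, 6.64 and 6.27 CPM after 24 h R, against 1.89, 1.81 and 1.55 CPM in darkness (1.73 ± 0.36).

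In PHYD-YFP/abcde, where limma called none, PCNA1 was the 1 gene called at 27 °C. It had 4.05, 1.92 and 4.51 CPM after 24 h R (78, 38 and 82 counts), against 1.23, 1.76 and 0.879 CPM in darkness (1.44 ± 0.38, adjusted p = 0.00958). MCM2 in that line had 8.21, 7.41 and 6.88 CPM after 24 h R, against 8.28, 6.85 and 8.46 CPM in darkness, which overlapped.

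MCM2, MCM3 and MCM5 were called at 27 °C in 3 lines each and MCM7 in 2, with log2 fold changes of 1.06 to 1.51 where called. The D-type cyclin was called in aBcde (1.40 ± 0.22), where it had 33.8, 27.9 and 29.6 CPM after 24 h R against 9.13, 10.7 and 14.99 CPM in darkness, and it was also called in PHYB-CFP/abcde. The B1-type kinase was called in PHYD-YFP/abCde (1.38 ± 0.30).

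The mitotic cyclin and the B2-type kinase were called in no line at 27 °C. Of these 10 tests, 1 had an unadjusted p under 0.05, the B2-type kinase in PHYD-YFP/abCde. It also passed an adjusted p of 0.05 without reaching 2-fold (log2 fold change 0.54, edgeR adjusted p = 0.0166). The mitotic cyclin stayed at 0.864 to 4.08 CPM (median 1.39) after 24 h R, against 0.103 to 2.46 CPM (median 1.24) in darkness, and its log2 fold changes were 0.07 to 0.81. The B2-type kinase had 13.2 to 24.7 CPM (median 16.0) after 24 h R, against 9.14 to 22.0 CPM (median 16.2) in darkness, with log2 fold changes of −0.26 to 0.54.

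**Figure D4:**
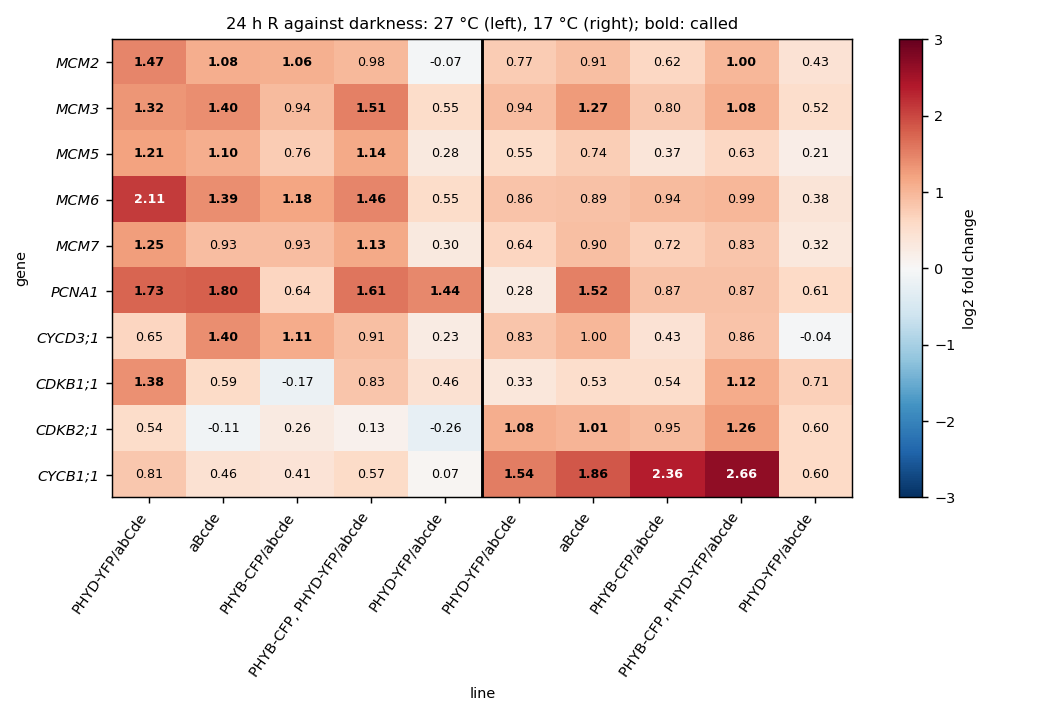
Log2 fold change after 24 h R over darkness of the 10 genes (rows) in the 5 lines (columns) at 27 °C and at 17 °C, with called values in bold. At 27 °C the calls lie mostly in the rows of the MCM genes and PCNA1, and at 17 °C mostly in the rows of CDKB2;1 and CYCB1;1.

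The other genes of mitosis and cytokinesis showed the same contrast. After 24 h R, 0 to 5 of 19 were called higher at 27 °C over the lines (medians −0.04 to 0.65) and 7 to 14 of 19 at 17 °C (medians 0.74 to 1.66). HINKEL was called in 9 of the 10 comparisons and TOPII, MAD2 and BUBR1 in 7 each. Of 37 further replication genes, 0 to 10 were called at 27 °C (medians 0.20 to 0.57) and 0 to 7 at 17 °C (medians 0.25 to 0.79). The medians of this list were thus not greater at 27 °C. Among the called were the loading factors CDT1B (6 of 10 comparisons) and CDT1A (5). E2FA was called higher in 7 of 10 comparisons (0.00 to 1.80). Tissue markers moved with 24 h R too. Of the stomatal lineage markers, SPCH was called higher in 7 and BASL and FAMA in 6 of 10 comparisons, and their summed level was 40.4 to 133 CPM after 24 h R at 27 °C and 91.7 to 167 CPM at 17 °C. The 6 shoot apex markers summed to 88.5 to 140 CPM (median 123) after 24 h R, against 81.8 to 127 CPM (median 105) in darkness, at 27 °C, and to 118 to 231 CPM (median 160) after 24 h R, against 98.0 to 135 CPM (median 108) in darkness, at 17 °C. Among them ANT was higher in 10 of 10 comparisons and called in 2, both at 17 °C. The 6 root tip markers summed to 89.0 to 122 CPM after 24 h R, against 81.2 to 111 CPM in darkness, at 27 °C, and to 88.6 to 137 CPM after 24 h R, against 91.4 to 128 CPM in darkness, at 17 °C. Up to 2 of them were called higher in a line at 17 °C and none at 27 °C, where BBM was called lower in 1 line. After 24 h R, PLT2 was higher in 8 of 10 comparisons (called in 3), PLT1 in 7 (called in 2) and BBM in 1. The part of these tissues in the changes of the 10 genes was not tested.

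Whether the 24 h response itself differed between 27 °C and 17 °C was tested as an interaction, and 4 of 50 tests were called. In PHYD-YFP/abCde the response was greater at 27 °C for PCNA1 (difference of log2 fold changes 1.46 ± 0.48, adjusted p = 0.0283) and MCM6 (1.25 ± 0.43, adjusted p = 0.0400). For the B2-type kinase it was smaller at 27 °C in aBcde (−1.12 ± 0.25, adjusted p = 0.00128) and in the two-transgene line (−1.13 ± 0.26, adjusted p = 0.0023). Its differences in all 5 lines were negative, from −1.13 to −0.54. Over the alternatives tried, the adjusted p ran from 0.0104 to 0.135 for PCNA1, from 0.0243 to 0.358 for MCM6, from 0.000165 to 0.0383 for the kinase in aBcde and from 0.000349 to 0.0637 for it in the two-transgene line. Each of these calls except that of the kinase in aBcde was lost without the replicates of at least 1 number.

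The differences of the mitotic cyclin were negative in all 5 lines too, from −2.09 to −0.53, but none was called (lowest adjusted p 0.0616, in PHYB-CFP/abcde), with 2 to 70 counts per library behind its values at 27 °C. Of all genes, 7.03% were called in this interaction in PHYD-YFP/abCde, 5.90% in aBcde, 5.08% in PHYB-CFP/abcde, 4.26% in the two-transgene line and 0.739% in PHYD-YFP/abcde. PHYB-CFP/abcde and PHYD-YFP/abcde had 0 calls among the 10 genes, with 3 and 1 at an unadjusted p under 0.05, and DESeq2 called 1 in PHYB-CFP/abcde. Of the 19 genes of mitosis, 3, 5, 0, 8 and 3 were called with a smaller response at 27 °C in these lines and 0 with a greater one. The 37 further replication genes gave 1 call of a greater response at 27 °C and 2 of a smaller one over all lines.

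Responses were then compared between lines that differ in their phytochromes. PHYD-YFP/abCde and PHYD-YFP/abcde differ in phyC and also in the level of PHYD, with 9564 to 37492.5 CPM against 3852 to 12572 CPM. The part of either in the differences between these lines, in R or in darkness, was not tested. At 27 °C, the 24 h response of PHYD-YFP/abCde exceeded that of PHYD-YFP/abcde, which lacks phyC, for MCM2 (difference 1.54 ± 0.30, adjusted p = 0.00186) and MCM6 (1.56 ± 0.45, adjusted p = 0.0475), and it was numerically greater for all 10 genes. After 24 h R at 27 °C, MCM2 reached 11.3, 12.9 and 10.5 CPM in PHYD-YFP/abCde, against 8.21, 7.41 and 6.88 CPM in PHYD-YFP/abcde. In darkness it had 3.53, 5.44 and 3.60 CPM in PHYD-YFP/abCde and 8.28, 6.85 and 8.46 CPM in PHYD-YFP/abcde, so both the lit and the dark values did not overlap between the lines. The adjusted p over the alternatives ran from 3.53e-05 to 0.0783 for MCM2 and from 0.0182 to 0.283 for MCM6, and both calls were lost without replicate 1 of all groups.

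Here 2 of 10 genes were called beside 1.15% of all genes. At 17 °C the same pair gave 0 of 10 calls (1 with an unadjusted p under 0.05, none by DESeq2 or limma) beside 2.69%. PHYD-YFP/abCde against aBcde gave 0 calls beside 3.04% at 27 °C and 2.14% at 17 °C, with 2 and 1 genes at an unadjusted p under 0.05, and DESeq2 called 1 at 17 °C. PHYB-CFP/abcde against aBcde gave 0 calls beside 0.0870% and 2.41%, and the two-transgene line against PHYB-CFP/abcde 0 beside 0.00483% and 2.44%. In these last 2 pairs, 1 of 40 tests had an unadjusted p under 0.05 and neither other tool called any.

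Between lines in darkness, 3 of 80 tests were called. PCNA1 was higher in PHYD-YFP/abCde than in aBcde at 27 °C (1.89, 1.81 and 1.55 CPM against 0.551, 1.02 and 0.264 CPM, log2 fold change 1.49 ± 0.45, adjusted p = 0.0344) and at 17 °C (11.1, 15.4 and 13.7 CPM against 8.58, 4.66 and 6.77 CPM, 1.00 ± 0.32, adjusted p = 0.0248), where 2.32% and 3.56% of all genes were called. MCM6 was lower in PHYD-YFP/abCde than in PHYD-YFP/abcde at 27 °C (0.670, 1.41 and 2.42 CPM against 3.90, 2.87 and 4.28 CPM, −1.30 ± 0.34, adjusted p = 0.0156), where 1.55% of all genes were called, against 0.841% and 0 of the 10 genes at 17 °C (0 also at an unadjusted p under 0.05 and by DESeq2 and limma). Each of the 3 calls was lost without the replicates of at least 1 number, with adjusted p up to 0.311 for PCNA1 and 0.234 for MCM6. PHYB-CFP/abcde against aBcde (1.27% at 27 °C and 1.29% at 17 °C) and the two-transgene line against PHYB-CFP/abcde (1.59% and 1.56%) gave 0 calls. In these last 2 pairs, 6 of 40 tests had an unadjusted p under 0.05, and DESeq2 and limma called none.

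A single hour of R changed little. At 17 °C, 1 of 50 tests was called, the D-type cyclin CYCD3;1 in aBcde, which fell. It had 8.85, 7.70 and 6.91 CPM after 1 h R, against 18.3, 18.5 and 21.5 CPM in darkness (log2 fold change −1.31 ± 0.22, adjusted p = 1.30e-05). After 24 h R the same line had 39.4, 37.0 and 40.3 CPM, so the lit level was below the dark one at 1 h and above it at 24 h (1.00, just short of 2-fold and not called). In the same line and comparison, 3 of the 6 stomatal lineage markers were called lower, with a list median of −1.41, and their part in the change of the cyclin was not tested.

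The share of genes called in either direction after 1 h R at 17 °C was 1.38% in PHYD-YFP/abCde, 7.69% in aBcde, 0.362% in PHYB-CFP/abcde, 0.585% in the two-transgene line and 0.0338% in PHYD-YFP/abcde. At 27 °C, 0 of 50 tests were called by edgeR, DESeq2 or limma, with 9 at an unadjusted p under 0.05, and the share of all genes was 0.164%, 1.77%, 2.36%, 3.62% and 0.319% in the same order of lines.

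Across the 30 group means of log2 CPM, the 5 MCM genes followed each other closely, with Pearson r of 0.975 to 0.985 between pairs. All genes share the same libraries and the groups share lines and temperatures, so r is given as a description. The 10 genes outside the set that were most like the mean of the 5 MCM genes were MCM4 (r = 0.991), CDT1A (0.985), AT5G08580 (0.985), the histone H2A gene HTA6 (0.984), AT5G04160 (0.984), ICU2 (0.983), the microtubule-bundling MAP65-2 (0.983), TSK (0.983), ETG1 (0.982) and the recombination gene BRCA2(IV) (0.982).

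Nearest to PCNA1 were MTHFR1, ENO1, AT4G28310, CDT1A and AT3G12170 (0.980 to 0.974), and nearest to the mitotic cyclin were CDC20.1, CDC20.2, TOPII, AT3G10310 and TPX2 (0.970 to 0.964). CDC20 proteins activate the complex that has cyclins degraded in mitosis. The B2-type kinase was nearest to KNOLLE, the syntaxin of the cell plate (0.961), AT5G62550, EB1C, MAP65-4 and IMPA-6, and the B1-type kinase to AT1G10780, AT1G20950, WEE1, AT5G57700 and AT5G08580 (0.969 to 0.966). The D-type cyclin stood apart, and its nearest genes were PMDH2 (0.963), the Rubisco subunit gene RBCS3B, AT5G52970, PSI-P and PnsL2 (0.955).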

How the data were processed

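The deposited table held raw read counts per gene for 90 libraries. The authors checked reads with FastQC, trimmed them with Trimmomatic, aligned them with STAR to TAIR10 and counted them with htseq-count, and the strand setting is not given in the sources used here. The counts ranged from 15010386 to 41124234 per library, and their number sets the precision of low genes such as CYCB1;1 (2 counts in its lowest library). Genes of the organelles and of tRNA and rRNA were not tested, and a gene was kept when 25% of the libraries or more had 5 counts or more (20695 of 28775).

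Groups followed the labels. One model with 30 group means and 60 residual degrees of freedom was fitted with edgeR 4.0.16 (R 4.3.3, quasi-likelihood test, TMM normalization) to all genes, and each of 56 comparisons was adjusted by the Benjamini-Hochberg method over all tested genes. A call needed an adjusted p below 0.05 together with a 2-fold or greater difference. Levels are given as CPM, for which library sizes were scaled by TMM, and errors of log2 fold changes are standard errors. Within no group did libraries agree within sampling noise (chi-square per gene at least 4.34 in 90 replicate pairs). Positions, names and promoters are from RefSeq TAIR10.1.

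The 10 genes, the lists of related genes and the markers were chosen with earlier results of these data known. Named were the 10 genes, up to 4 genes per list called in the most comparisons of 24 h R with darkness and of 27 °C with 17 °C in darkness, and the genes nearest in their profile over the 30 groups. Lists are described by counts and medians, with no set test. Whether libraries of different groups overlap is described for the 10 genes only, and the share of all genes without overlap was not counted. The alternatives were DESeq2 1.42.0, its size factors, other filters, smaller models, a replicate block, quantile normalization with limma 3.58.1, no fold threshold and left-out libraries. The fit was tested on simulated counts.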

Additional observations from a re-analysis of the deposited data

Results flagged for a closer look

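The 24 h response to R differed between the temperatures or between lines, by a test of the difference itself, in 6 cases. The response at 27 °C minus that at 17 °C was 1.46 for PCNA1 and 1.25 for MCM6 in PHYD-YFP/abCde, and −1.12 in aBcde and −1.13 in PHYB-CFP, PHYD-YFP/abcde for CDKB2;1 (log2 scale, edgeR adjusted p = 0.0283, 0.0400, 0.00128 and 0.00230). At 27 °C, the response of PHYD-YFP/abCde minus that of PHYD-YFP/abcde was 1.54 for MCM2 and 1.56 for MCM6 (edgeR adjusted p = 0.00186 and 0.0475). Both genes stood lower in PHYD-YFP/abCde in darkness. These are 6 of 130 such tests, and 3 of the 6 involve PCNA1 or MCM6 at levels of a few CPM in darkness at 27 °C.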

How the results depend on the processing

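No log2 fold change of the 10 genes that was called turned its direction under any alternative, and 7419 of 7600 single-gene values stayed on their side of the threshold. The counts for 27 °C against 17 °C stayed within 1.5 times of the values given, and without the replicates of 1 number they were 36 to 38 in darkness, 37 to 39 after 1 h R and 43 to 45 after 24 h R. For 24 h R against darkness at 17 °C, 35 of 50 tests passed without a fold threshold in place of 12. At 27 °C, quantile normalization with limma gave 13 in place of 22. For 1 h R at 27 °C, leaving out the replicates of 1 number gave 0 to 2 calls in place of 0.

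The 4 calls for the 24 h response at 27 °C minus that at 17 °C fell to 2 with quantile normalization and limma, and to 2 without the replicates of any 1 number. The 2 calls for the 24 h response between lines became 1 with the libraries of each comparison alone, 1 with quantile normalization and limma, 1 in the model of 54 libraries, and 0 to 3 without the replicates of 1 number. The 3 calls between lines in darkness became 1 with the libraries of each comparison alone, 7 without a fold threshold and 1 to 2 without the replicates of 1 number. The cause of these changes was not tested.

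Within a line and temperature, the replicate numbers showed no pairing between light conditions, since 8 of 90 correlations of same-numbered deviations were above 0.1 (median −0.004). Pairing by number between temperatures or between lines was not examined. With the number as a block, the 24 h response between lines gave 1 call in place of 2, and 6 of 560 single-gene calls changed (4 lost, 2 gained). Leaving out PHYD-YFP/abCde 17 °C 1 h R replicate 3 changed no call. Leaving out aBcde 27 °C 24 h R replicate 1, an alternative chosen after seeing the data, gave 23 calls in place of 22 for 24 h R at 27 °C by adding MCM7 in aBcde. Depth limits the low genes, since CYCB1;1 had 2 to 46 and PCNA1 4 to 44 counts in the dark libraries at 27 °C.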
